A study of Salmo salar with 72 samples.

Results

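Hepatocytes exposed to 100 µM arsenate (AsV) were compared with the arsenate control in cells of the same 3 Atlantic salmon. The comparison held 6 of the study's 72 RNA-seq libraries, chosen by their titles: Control_AsV and AsV_100uM, each from fish 1, fish 2 and fish 3. The study isolated primary hepatocytes from male fish by collagenase perfusion of the liver, plated them on laminin-coated porous scaffolds and exposed them for 48 h to arsenate, arsenite or arsenobetaine. Arsenate was tested at 10, 50 and 100 µM with a control of its own, giving 12 libraries. Every culture, controls included, stood in the same medium with fetal bovine serum, antibiotics and amphotericin, and the labels name no agent added to the controls. Every library came from a single culture of a single animal. Libraries were paired by fish, which takes baseline differences between animals out of the error. The error that remains mixes differences in response among 3 animals with differences between cultures, which cannot be told apart. The labels' free text speaks of arsenosugar and arsenite where the titles say AsV, and groups follow the titles.

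Arsenate is a chemical analogue of phosphate: it enters cells on phosphate carriers and can take the place of phosphate in enzyme reactions such as that of glyceraldehyde-3-phosphate dehydrogenase. Cells reduce it to arsenite, which binds thiols of proteins and of glutathione, and the liver methylates arsenite with S-adenosylmethionine as methyl donor and exports glutathione conjugates into bile. Arsenite that reacts with cysteines of the sensor KEAP1 releases the transcription factor NRF2, which drives glutathione, thioredoxin, NADPH and iron-storage genes, while damaged proteins release HSF1, which drives the heat shock genes. These are textbook accounts of arsenic, drawn mostly from mammals, and not results of the libraries below.

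The 12 arsenate libraries held 31.8 M to 48.3 M reads. Of the 25830 genes in the table, at most 242 were listed at 0 in a control library and 170, 676 and 1069 in the 100 µM libraries of fish 1, 2 and 3. Markers of hepatocytes were high throughout: their summed level was 128905 to 140171 CPM (reads scaled to equal library totals) in controls and 109181 to 121513 at 100 µM, with 4 of 21 called lower. Summed markers of other cells were low, at 2.17 to 7.57 CPM in controls and 3.59 to 17.05 at 100 µM for erythroid cells and 10.7 to 14.3 and 11.2 to 15.7 for leukocytes. Endothelial markers stood at 0.621 to 1.23 and 0 to 0.611, biliary markers at 5.55 to 9.84 and 2.49 to 11.3, and stellate or fibroblast markers at 32.5 to 33.5 and 23.4 to 25.1, and no member of these lists was called. The hepatocyte and stellate sums were lower at 100 µM than in controls. The endothelial sums rest on 3 genes near 0 in both groups, and their ranges almost touch. With 3 libraries in a group no weight is put on these separations, and their part in the results below was not tested. In bulk samples, fewer cells of a type and less RNA per cell cannot be told apart.

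The fish 3 library titled 100 µM stood apart from those of fish 1 and 2. Among 16130 genes with a mean of at least 100 in the controls, the number that differed 2-fold or more from the control of the same fish was 2092 at 50 µM and 3851 at 100 µM in fish 1. Fish 2 gave 2831 and 4021 genes in that order. Fish 3 gave 4405 and 1544, so its greatest count fell at the title of 50 µM. The fish 3 library titled 50 µM listed 1505 genes at 0, against 201 and 469 in fish 1 and 2 at that dose. The part of these zeros in the order of the doses was not tested. The library of fish 3 titled 10 µM also stood apart: 738 genes differed 2-fold or more from control, against at most 117 in the other fish at this dose, and 1729 genes were listed at 0. It enters the comparison of 100 µM with control through the shared estimate of the spread and the filter on low values, and without it 1197 genes rose and 628 fell. The order of the 2 upper doses was also opposite gene by gene. Of 255 genes that were higher by 1 or more on the log2 scale at 100 than at 50 µM in both fish 1 and fish 2, 248 (97.3%) were lower in fish 3, 220 of them by 1 or more and 2 higher by 1 or more. The median difference of these genes was 1.26 in fish 1, 1.397 in fish 2 and -1.82 in fish 3. Of 107 genes lower by 1 or more in fish 1 and 2, 99 (92.5%) were higher in fish 3, with medians of -1.29, -1.49 and 1.56. Whether the titles of these libraries match their doses was not tested, and results are therefore given for each fish and without fish 3.

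**Figure D1:**
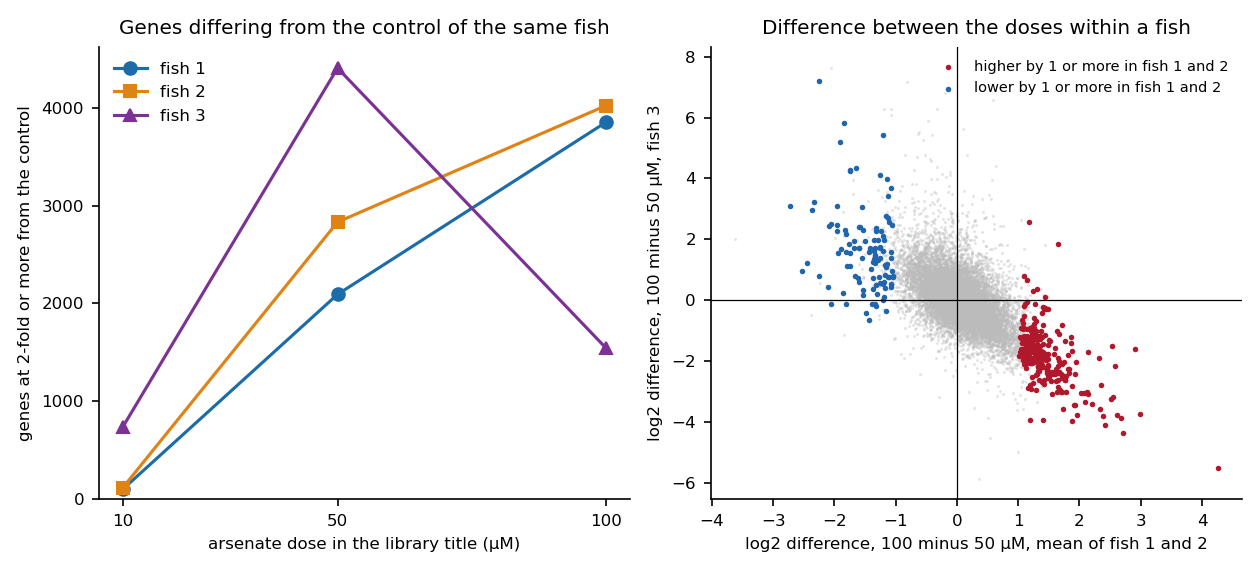
Left: number of genes, of 16130, that differed 2-fold or more from the control of the same fish, against the arsenate dose in the library title (µM). Right: log2 difference between 100 and 50 µM in fish 3 (y) against the mean of fish 1 and 2 (x), 1 point per gene, with the 255 and 107 genes of at least 1 in both fish coloured; most coloured points lie on the opposite side of 0 in fish 3.

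Across 25465 genes tested, 2190 (8.60%) differed between 100 µM and control at an adjusted p under 0.05, and these are the genes written below as called. Of them, 1401 rose (5.50%) and 789 fell (3.10%). Changes are log2(value + 1) at 100 µM minus control from limma with the fish as a block, ± standard error, and values are normalized read counts in the order fish 1, 2 and 3. All 1401 rises and all 789 falls had the same sign in the 3 fish. A call favours genes whose fish agree, so the shared sign is no separate evidence of agreement between the animals. The median change by fish was 1.4997, 1.504 and 0.96 for the rises and -1.404, -1.37 and -1.02 for the falls. Fish 3 gave the smallest change for 952 of the rises and 413 of the falls. In fish 1 and 2 together, 933 rises and 468 falls reached 1 or more, and 519 and 285 did so in all 3 fish.

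Counts depended strongly on which fish were in the fit. With fish 1 and 2 alone, 2455 genes rose (9.81%) and 1518 fell (6.06%), among them 1274 of the 1401 rises and 617 of the 789 falls. Without fish 1, 78 rose (0.312%) and 17 fell (0.0679%), and without fish 2, 262 rose (1.05%) and 122 fell (0.488%). A core of 83 genes, 69 higher and 14 lower, was called in every one of these fits. Ferritin middle subunits made up 14 of the 69, beside glutathione genes such as gsr, slc3a2 and gsh1. Where a call made with all fish was lost without fish 1, 2 or 3, the adjusted p of that fit follows. The groups of genes below are described by their counts and medians and read against the shares of 5.50% and 3.10%. The median over all genes tested was -0.06, with fish medians of 0.02, -0.07 and -0.02. Counts from a fit without a fish are read against the shares of that same fit.

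**Figure D2:**
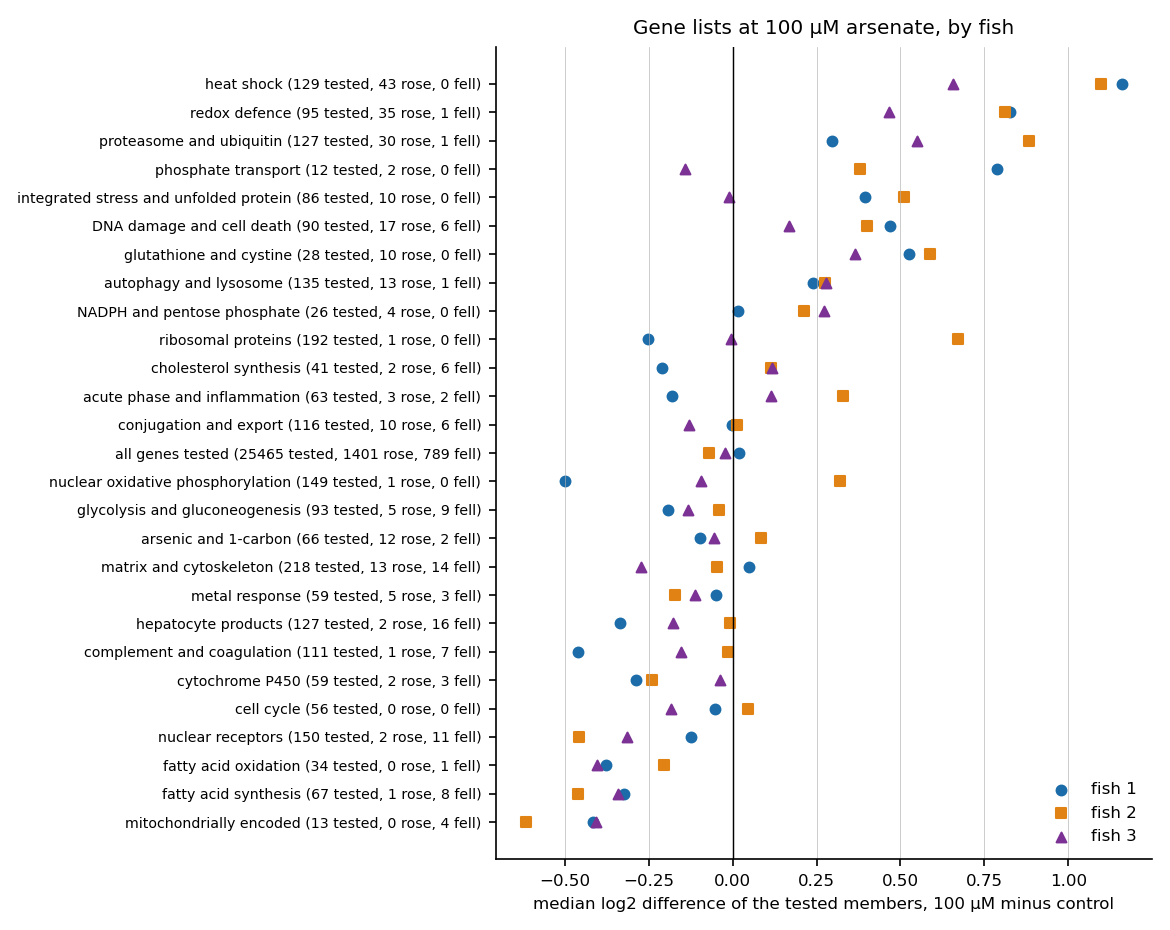
Median log2 difference between 100 µM arsenate and control over the tested members of each gene list (x), 1 symbol per fish, with the number of members tested, risen and fallen beside each name. The heat shock list stands farthest to the right in each of the 3 fish, with a smaller median in fish 3. The integrated stress list is above 0 in fish 1 and 2 and near 0 in fish 3.

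The first genes examined were phosphate carriers, arsenate's route of entry. Of 12 phosphate carriers tested, 2 rose and none fell, with 2, 1 and 0 called without fish 3, fish 2 and fish 1. The sodium-dependent phosphate transporter s20aa, an importer of the SLC20 family, stood at 12.7, 10.4 and 3.73 in the controls and at 201, 229 and 148.9 at 100 µM. Its groups did not overlap, and it rose by 4.40 ± 0.82 (adjusted p = 0.00902, but 0.164 without fish 1). The other riser was LOC106568876, a homolog of the XPR1 receptor, the known phosphate exporter of animal cells. LOC106568876 went from 736, 719 and 735 to 1379, 1456 and 1208, a change of 0.88 ± 0.19 (adjusted p = 0.0178, but 0.241 without fish 1 and 0.165 without fish 2). The transporter 1-B copies LOC106563198 and LOC106564912 were not called, at 0.22 (adjusted p = 0.724) and 0.43 (adjusted p = 0.519), and both were lower than control in fish 3.

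Key genes of cystine uptake and of glutathione synthesis and recycling rose. Of 28 tested, 10 rose and none fell, and 5, 5 and 10 rose without fish 1, 2 and 3. Cystine enters on a pair of proteins, the exchanger xCT and its heavy chain. LOC106604686, the cystine/glutamate transporter-like gene, was at 138.6, 120.0 and 146.4 in controls and at 1021, 777 and 1085 at 100 µM. It rose by 2.81 ± 0.23 (adjusted p = 0.00016), by nearly the same amount in each fish (2.87, 2.69 and 2.88). The heavy chain slc3a2 went from 486, 409 and 325 to 5979, 7809 and 1538 and rose by 3.37 ± 0.43 (adjusted p = 0.00148). Its fish 3 value was the lowest of the 3 at 100 µM and still above every control.

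Glutamate-cysteine ligase, the rate-limiting enzyme of glutathione synthesis, has a catalytic and a regulatory subunit. The catalytic gene gsh1 stood at 2989, 2425 and 2688 in controls and 7548, 6677 and 12385 at 100 µM, a rise of 1.67 ± 0.25 (adjusted p = 0.0031) that was greatest in fish 3. The regulatory gene LOC106584335 rose by 1.56 ± 0.22 (adjusted p = 0.00226), and its copy gsh0 by 1.46 ± 0.28 (adjusted p = 0.0107, but 0.209 without fish 1 and 0.0662 without fish 2). Glutathione reductase, gsr, which returns oxidized glutathione to its reduced form, went from 12080.1, 9069 and 9873 to 63765, 65464 and 66739. The 3 exposed libraries lay within a narrow band far above the controls, and gsr rose by 2.67 ± 0.24 (adjusted p = 0.000223) and was called whichever fish was left out. Within the same list, chac1, an enzyme that breaks glutathione down, rose as well and is described with the stress factors below.

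The redox list of sensors, thioredoxin and peroxide enzymes and ferritins had 95 members tested, of which 35 rose and 1 fell, with a median of 0.62 and fish medians of 0.82, 0.81 and 0.47. Without fish 1, 2 and 3 the rises numbered 18, 24 and 37. KEAP1 itself rose in 2 of 5 copies: LOC106574506 from 3987, 5058 and 3963 to 23999, 15122 and 21299, a change of 2.20 ± 0.25 (adjusted p = 0.000972), and LOC106564503 by 0.79 ± 0.16 (adjusted p = 0.0129, but 0.301 without fish 1 and 0.0637 without fish 2). The NRF2 gene nf2l2 stood at 1809, 1445 and 1545 in controls and 4617, 4776 and 1686 at 100 µM. It was higher in fish 1 and 2 and near control in fish 3, and missed the call with all fish at 1.07 ± 0.41 (adjusted p = 0.127), while in fish 1 and 2 alone it was called (adjusted p = 0.00423). The NRF1-type factor LOC106607482, named nuclear factor erythroid 2-related in the table, rose by 2.40 ± 0.41 (adjusted p = 0.00631, but 0.141 without fish 1 and 0.0846 without fish 2).

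Among enzymes, the aldose reductase-like gene LOC106609239 (aldose reductases reduce reactive aldehydes) was at 10556, 7253 and 8278 in controls and 70626, 77684 and 113291 at 100 µM. It rose by 3.31 ± 0.29 (adjusted p = 0.000223) and in each fit that left out a fish. The thioredoxin-like gene LOC106577817 went from 687, 265 and 254 to 3608, 3324 and 1053, a rise of 2.69 ± 0.39 (adjusted p = 0.00299). Of 4 thioredoxin reductases, which restore thioredoxin with NADPH, 2 rose by 1.06 and 1.11, and none of the 4 was called without fish 1. Only 1 of 10 peroxiredoxins rose, by 1.35, and none without fish 3. Peroxiredoxin fish medians were -0.56, 0.39 and -0.47. Neither of 2 glutathione peroxidases was called with all fish, and 1 fell in fish 1 and 2 alone. The 4 NQO1 copies (a quinone reductase) ran from -0.01 to 0.65 and were not called, nor was sulfiredoxin, srxn1, at -0.17 ± 0.32 (adjusted p = 0.801), with -0.92, -0.05 and 0.47 in the 3 fish. The heme oxygenase-like gene LOC106590330 was at 483, 238 and 155.7 in controls and 1082, 1185 and 334 at 100 µM, not called with all fish (adjusted p = 0.156) and called in fish 1 and 2 (adjusted p = 0.0204). LOC106570200, a thioredoxin-interacting protein, the known inhibitor of thioredoxin, was the 1 member that fell, with a change of -1.05 ± 0.27 (adjusted p = 0.0322, but 0.323 without fish 1, 0.0679 without fish 2 and 0.0902 without fish 3).

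The ferritin middle subunits made up 21 of these 35 rises. This subunit, known from fish and amphibians, forms part of the shell that stores iron in the cytosol. All 22 copies tested were higher in all 3 fish, and 21 were called, with changes of 1.02 to 3.51. Fish medians were 1.63, 2.50 and 2.24, with fish 3 between the others, and 14, 17 and 20 rose without fish 1, 2 and 3. The copy LOC106600949 stood at 52069, 45284 and 48989.7 in controls and 137610.0, 189036 and 144591 at 100 µM, a rise of 1.68 ± 0.25 (adjusted p = 0.00328). The copy with the greatest change, LOC106600763, went from 61, 46.1 and 67.1 to 514, 736 and 766 (3.51 ± 0.45, adjusted p = 0.00149). LOC106600767, the copy not called, changed by 0.97 ± 0.28 (adjusted p = 0.052). None of the 5 heavy or lower subunit genes was called, with changes of -1.26 to 0.48. Many copies are near-identical, here and in the other salmon families below, so reads could be split between them and the value of a single copy is uncertain.

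**Figure D3:**
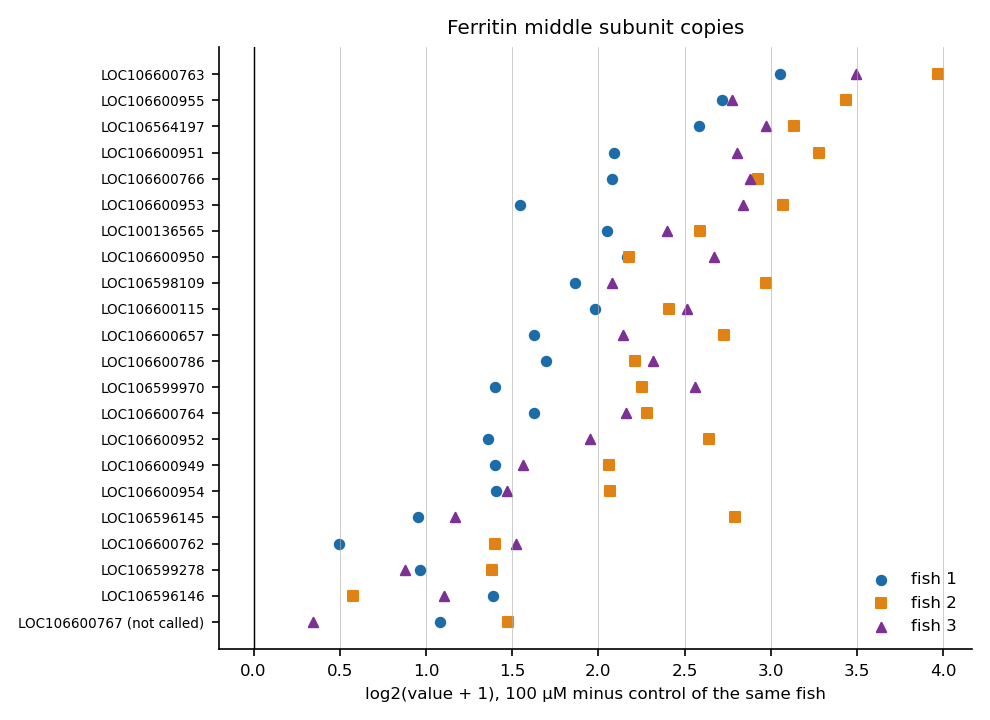
Log2 difference between 100 µM arsenate and control of the same fish (x) for each of the 22 ferritin middle subunit copies (y), 1 symbol per fish. All points lie above 0, and fish 3 lies among the other fish for most copies.

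NADPH for these reductases comes largely from the pentose phosphate pathway. All 3 genes of its first enzyme, glucose-6-phosphate dehydrogenase, rose, by 1.30 to 4.03; 1, 2 and 3 of them were called without fish 1, 2 and 3. LOC106571947 stood at 2215, 1463 and 1525 in controls and 7076, 5281 and 12257 at 100 µM (2.18 ± 0.30, adjusted p = 0.00211), with the highest value in fish 3. The next NADPH-forming enzyme, pgd, rose by 1.01 ± 0.20 (adjusted p = 0.0126, but 0.0948 without fish 1, 0.0688 without fish 2 and 0.0763 without fish 3). The rest of the list of 26 was not called.

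Heat shock proteins, the chaperones that hold and refold damaged proteins, rose in many members. Of 129 tested, 43 rose and none fell, with a median of 0.98 and fish medians of 1.16, 1.10 and 0.66. Fish 1 and 2 alone gave 66 rises and 1 fall, against 4 rises without fish 1 and 11 without fish 2. The inducible HSP 90-alpha gene hs90a was at 8836, 4599.9 and 2199.9 in controls and 297099, 371431 and 49655 at 100 µM. Every exposed library was above every control, with fish 3 the lowest of the 3. It rose by 5.30 ± 0.77 (adjusted p = 0.00334, but 0.0702 without fish 1 and 0.215 without fish 2).

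HSP70 and its HSP110-type partners had 16 rises among 31, and 2, 4 and 21 without fish 1, 2 and 3. The constitutive HSP70 gene LOC106613013 went from 10584, 7959 and 7928 to 47838, 38283 and 27970.2, a rise of 2.09 ± 0.25 (adjusted p = 0.00121) called whichever fish was left out. LOC106610995, an HSP110-type gene named HSP70 4L-like, was also called in each of those fits, going from 118.0, 63.5 and 77.4 to 3077, 2203 and 704 (4.32 ± 0.50, adjusted p = 0.000986). The inducible copy LOC106572869 was at 87.9, 26.1 and 0 in controls and 3859, 1803 and 41.3 at 100 µM, and at 196.6, 49.1 and 1914 at 50 µM. Its fish 3 value at 100 µM lay within the range of the controls, although its own control was 0, and the gene was not called with all fish (adjusted p = 0.0764) but was in fish 1 and 2 (adjusted p = 0.000396).

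Small heat shock proteins differed widely in size of change between the fish. Their median was 4.71 in fish 1, 4.63 in fish 2 and 0.77 in fish 3, and 4 of 17 were called with all fish, 12 in fish 1 and 2, 0 without fish 1 and 1 without fish 2. The 9 tested copies of heat shock protein 30, a small chaperone of fish, changed by 3.13 to 4.99 with fish medians of 5.49, 5.70 and 0.67; none was called with all fish, and 7 were in fish 1 and 2. LOC106568146, a heat shock protein beta-11-like gene, went from 190.1, 44.3 and 81.1 to 4691, 4748 and 1067 (5.01 ± 0.73, adjusted p = 0.00299, but 0.0527 without fish 1 and 0.121 without fish 2). DnaJ proteins, the co-chaperones that bring clients to HSP70, had 11 rises among 36, and 0, 0 and 15 without fish 1, 2 and 3.

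Helpers of the chaperones also rose, in 10 of 34 genes, with 2, 6 and 12 rises without fish 1, 2 and 3. The co-chaperone bag3, which hands HSP70 clients to autophagy, went from 772, 542 and 359.8 to 42459, 21706 and 2104 and rose by 4.55 ± 0.99 (adjusted p = 0.0194, but 0.302 without fish 1 and 0.365 without fish 2). Its fish 3 value was far under the others, though above every control. The AN1-type zinc finger genes are homologs of AIRAP, an arsenite-inducible protein of mammals that binds the proteasome. LOC106601116 of this family stood at 1345, 657 and 802 in controls and 74588, 75875 and 14344 at 100 µM (5.60 ± 0.66, adjusted p = 0.0012, but 0.14 without fish 2). Its relative zfn2b rose by 4.41 ± 0.45 (adjusted p = 0.000506) and was called whichever fish was left out.

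Genes of the proteasome, the protease of ubiquitinated proteins, also rose. Of 127 genes of the proteasome and of ubiquitin handling, 30 rose and 1 fell, with a median of 0.60 and fish medians of 0.30, 0.88 and 0.55; without fish 1, 2 and 3 the rises were 0, 6 and 30. In the regulatory particle, which recognizes and unfolds ubiquitinated proteins, 23 of 47 genes rose, by 0.65 to 1.37. The proteolytic core had 1 rise among 47 alpha and beta genes, LOC106584187 (proteasome subunit alpha type-7-like) at 2.10 ± 0.50 (adjusted p = 0.0252, but 0.256 without fish 1 and 0.217 without fish 2). The difference between particle and core was not tested. The proteasome activator LOC106611227 went from 1362, 1211 and 1150.3 to 4778, 3359 and 3038 (1.56 ± 0.19, adjusted p = 0.00129, but 0.0801 without fish 1). An assembly chaperone, LOC106607335, was the 1 that fell, with a change of -2.06 ± 0.51 (adjusted p = 0.0295, but 0.405 without fish 1 and 0.162 without fish 2).

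The autophagy receptor sequestosome-1 (p62), which binds ubiquitinated cargo and KEAP1, has 2 genes by symbol, of which the table leaves sqstm1 without a product name. The gene sqstm1 stood at 60421, 47229 and 47804 in controls and at 646428, 653835 and 270039 at 100 µM. It rose by 3.24 ± 0.42 (adjusted p = 0.00149, but 0.0927 without fish 2). Its paralog sqstm rose by 2.69 ± 0.56 (adjusted p = 0.0139, but 0.201 without fish 1 and 0.323 without fish 2). Of 135 autophagy and lysosome genes, 13 rose and 1 fell with a median of 0.24, and 0, 1 and 15 rose without fish 1, 2 and 3.

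The integrated stress response is set off by a block of translation initiation, which raises ATF4 and its targets. Of 86 genes of this response and of the unfolded protein response of the endoplasmic reticulum, 10 rose and none fell (5 rose without the fish 3 library titled 10 µM), with fish medians of 0.39, 0.51 and -0.01. Fish 1 and 2 alone gave 17 rises and 1 fall, in a fit where 9.81% of all genes rose and 6.06% fell. None was called without fish 1 or without fish 2. atf4 rose by 1.01 ± 0.22 (adjusted p = 0.017, but 0.3 without fish 1 and 0.0912 without fish 2) and the ATF3-like gene LOC106607825 by 1.67 ± 0.45 (adjusted p = 0.0416, but 0.272 without fish 1 and 0.343 without fish 2; 0.0622 without the fish 3 library titled 10 µM). CHOP, encoded by ddit3, is the death-linked factor of the pathway; its gene LOC106582666 stood at 856, 1062 and 821 in controls and 5241, 6939 and 849 at 100 µM, with fish 3 close to its control. It was not called with all fish (1.79 ± 0.67, adjusted p = 0.122) and was in fish 1 and 2 (adjusted p = 0.000615). chac1, the ATF4 and CHOP target that degrades glutathione, went from 2738, 2513 and 2087 to 32486, 42991 and 8728 (3.24 ± 0.49, adjusted p = 0.00326, but 0.0778 without fish 1 and 0.153 without fish 2). Of 39 folding genes of the endoplasmic reticulum, 1 rose, the BiP-type chaperone LOC106603660 at 1.39 ± 0.28 (adjusted p = 0.0133, but 0.21 without fish 1 and 0.105 without fish 2), and the folding genes had a median of 0.01.

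Of 13 genes listed under arsenic handling by their product names, 4 rose and none fell, and 0, 1 and 4 rose without fish 1, 2 and 3. The 4 arsenite methyltransferases (AS3MT), which methylate arsenic, were not among them and changed by -0.64 to 1.25. The gene as3mt stood at 246, 258 and 200.4 in controls and 120.0, 151.98 and 209 at 100 µM (-0.58 ± 0.29, adjusted p = 0.244). The copy LOC106588782 came nearest to a call, at -0.64 ± 0.19 (adjusted p = 0.0547), and was called lower in fish 1 and 2 (adjusted p = 0.0259). Aquaporin-9, aqp9, a channel for arsenite in liver, was at 112.4, 157.3 and 108.1 in controls and 82.5, 255 and 33.7 at 100 µM, with no common direction across fish (adjusted p = 0.599). The omega glutathione transferase gsto1, an enzyme able to reduce methylated arsenic in mammals, rose by 1.29 ± 0.24 (adjusted p = 0.00876, but 0.0802 without fish 1). The other 3 that rose were a pair of asna1-like ATPases, homologs of a bacterial arsenite pump that insert membrane proteins, at 0.75 (adjusted p = 0.0397, but 0.478 without fish 1 and 0.145 without fish 2) and 0.90 (adjusted p = 0.0485, but 0.32 without fish 1 and 0.272 without fish 2), and the RNA-processing gene LOC106603397 (serrate homolog) at 1.11 (adjusted p = 0.00876, but 0.249 without fish 1 and 0.0689 without fish 2).

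S-adenosylmethionine synthase, which makes the methyl donor, had 2 rises and 0 falls among 6 genes, with changes of -1.07 to 3.14. Of the 6, 3 were higher in all 3 fish and 2 were lower in all 3. LOC106580346 stood at 6248, 2839 and 4349 in controls and 37645, 40418 and 34581 at 100 µM. Its groups were far apart in each fish, and it rose by 3.14 ± 0.29 (adjusted p = 0.000314) and was called whichever fish was left out. A pair of genes named bifunctional methylenetetrahydrofolate dehydrogenase, enzymes of folate one-carbon transfer, rose by 3.01 ± 0.46 (LOC106580352, adjusted p = 0.00337, but 0.0995 without fish 1 and 0.0848 without fish 2) and 2.78 ± 0.31 (LOC106585270, adjusted p = 0.000853, but 0.0778 without fish 1). Betaine-homocysteine methyltransferase, which remakes methionine from homocysteine, went the other way in 1 of 2 genes, LOC106568115. The second gene was higher in all 3 fish, at 0.56, and was not called. LOC106568115 went from 69783, 27027 and 50099 to 11595, 14233 and 17768, with the lowest control in fish 2, and changed by -1.67 ± 0.27 (adjusted p = 0.00459, but 0.119 without fish 1). Its chromosomal neighbour dmgdh, the enzyme that next oxidizes dimethylglycine, changed by -1.498 ± 0.25 (adjusted p = 0.0052, but 0.118 without fish 1). In the whole list of 66 arsenic and one-carbon genes, 12 rose and 2 fell, with 1, 3 and 14 rises without fish 1, 2 and 3.

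Few metal genes were called, at shares near those of all genes tested. Of 59, 5 rose and 3 fell, and 0, 0 and 4 rose without fish 1, 2 and 3. Without the fish 3 library titled 10 µM, 3 rose. The NRAMP-type gene LOC106583265, of a family that moves iron and other divalent metals, went from 9309, 5960.2 and 6731 to 33977, 19903 and 101184 and rose by 2.51 ± 0.49 (adjusted p = 0.0104, but 0.0847 without fish 1 and 0.229 without fish 2). Fish 3 held the highest value. The zinc exporter 1-like gene LOC106571198 went from 3301, 2329 and 2922 to 873, 932 and 1025, a change of -1.58 ± 0.19 (adjusted p = 0.00121, but 0.0802 without fish 1). The copper importer LOC106563027 changed by -1.13 ± 0.18 (adjusted p = 0.00397, but 0.168 without fish 1). Metallothionein B (LOC100136581), a thiol-rich metal-binding protein, rose by 1.51 ± 0.38 (adjusted p = 0.0316, but 0.0847 without fish 1, 0.0694 without fish 2 and 0.103 without fish 3; 0.0502 without the fish 3 library titled 10 µM), while metallothionein A (LOC100136589) changed by 0.11 ± 0.46 (adjusted p = 0.915).

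Several genes of glucose production fell, while some glucose transporters rose. Of 42 genes of gluconeogenesis and glucose transport, 5 rose and 7 fell; the falls numbered 0, 2 and 8 without fish 1, 2 and 3. pck1, the gate of gluconeogenesis, stood at 634, 1391 and 1191 in controls and 66.5, 115.7 and 372 at 100 µM, with no overlap (-2.83 ± 0.37, adjusted p = 0.00175, but 0.0758 without fish 1). Aldolase B-like LOC106604855 changed by -3.09 ± 0.51 (adjusted p = 0.00491, but 0.158 without fish 1), and the glucose-6-phosphatase-like gene LOC106589306 by -0.74 ± 0.20 (adjusted p = 0.0388, but 0.389 without fish 1 and 0.222 without fish 2). Of the 16 glucose transporters of family 2, 4 rose and 2 fell. LOC106583009 went from 407, 193.0 and 209 to 2866, 1749 and 913 (2.70 ± 0.27, adjusted p = 0.000506) and was called whichever fish was left out. Of 51 glycolysis genes, none rose and 2 fell. In fish 1 and 2 alone 5 rose, near the 9.81% of all genes that rose in that fit. Of 6 copies of glyceraldehyde-3-phosphate dehydrogenase, a classic site of arsenate's substitution for phosphate, LOC106588432 alone was called, at -0.94 ± 0.24 (adjusted p = 0.0348, but 0.397 without fish 1, 0.0975 without fish 2 and 0.0812 without fish 3).

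With all 12 libraries in the fit, called genes of fatty acid and triglyceride synthesis were lower in all but 1 case. Of 67 in the fatty acid and triglyceride list, 1 rose and 8 fell, with a median of -0.42 and fish medians of -0.32, -0.46 and -0.34; without fish 1, 2 and 3 the falls were 1, 2 and 11, and without the fish 3 library titled 10 µM 3 genes rose and 7 fell. The long-chain acyl-CoA ligase LOC106612015, which activates fatty acids, showed the greatest fall of all called genes. It stood at 341, 180.8 and 437 in controls and 15, 0 and 0 at 100 µM, and fell in each fit that left out a fish (-6.90 ± 0.92, adjusted p = 0.00176). Fatty acid synthase-like LOC106610271 changed by -1.17 ± 0.29 (adjusted p = 0.0304, but 0.268 without fish 1 and 0.0636 without fish 2). A diacylglycerol acyltransferase 1-like gene, LOC106560908, was the 1 riser, from 132.2, 36.5 and 69 to 422, 188.3 and 936 (2.58 ± 0.53, adjusted p = 0.0136, but 0.115 without fish 1 and 0.0694 without fish 2). In fatty acid oxidation, 1 of 34 genes was called, the liver carnitine palmitoyltransferase 1 gene LOC106573415, the gate of mitochondrial import, at -1.36 ± 0.22 (adjusted p = 0.00496, but 0.123 without fish 1).

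In the cholesterol list the share of falls was above the 3.10% of all genes, while the median was 0.07. Of 41, 2 rose (1 without the fish 3 library titled 10 µM) and 6 fell, and without fish 1 or fish 2 none was called. hmdh, the rate-limiting HMG-CoA reductase, rose by 1.77 ± 0.32 (adjusted p = 0.0079, but 0.191 without fish 1 and 0.079 without fish 2). insig1, which holds that pathway's transcription factor back in the endoplasmic reticulum, changed by -1.71 ± 0.34 (adjusted p = 0.0124, but 0.258 without fish 1 and 0.145 without fish 2), and 2 LDL receptor-like genes, which take up cholesterol, by -2.05 ± 0.42 (LOC106601326, adjusted p = 0.0126, but 0.191 without fish 1 and 0.108 without fish 2) and -1.41 ± 0.30 (LOC106607045, adjusted p = 0.0164, but 0.265 without fish 1 and 0.149 without fish 2). These 4 genes were called in fish 1 and 2, where their changes were greater than in fish 3. For insig1 the 3 fish gave -2.73, -1.90 and -0.49. The other riser was the 3-keto-steroid reductase-like gene LOC106568727, and the other falls were insig2, the INSIG1-like gene LOC106578605 and LOC106605338, which is named as the SREBP cleavage-activating protein.

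Few genes of energy supply or protein synthesis passed the threshold. Of 149 nuclear genes of oxidative phosphorylation, 1 rose, and of 192 ribosomal protein genes, 1 rose, the S27-like gene LOC106573549 at 1.62 ± 0.34 (adjusted p = 0.0153, but 0.226 without fish 1 and 0.108 without fish 2). Fish medians were -0.50, 0.32 and -0.09 for nuclear oxidative phosphorylation and -0.25, 0.67 and -0.003 for ribosomal proteins. In both lists fish 1 and fish 2 thus lay on opposite sides of 0, and few calls do not mean that levels stayed unchanged within a fish. Of 13 mitochondrially encoded genes, 4 fell and none rose, with a median of -0.61 and fish medians of -0.41, -0.62 and -0.41. The complex I subunit ND4 went from 12862, 17692 and 15955 to 9124, 7668 and 10224 (-0.78 ± 0.18, adjusted p = 0.0231, but 0.199 without fish 1, 0.156 without fish 2 and 0.0619 without fish 3), and ND2, ND4L and ND5 were also called lower, at -0.85, -1.39 and -0.93. None of the 4 was called in any fit that left out a fish, and 2 were called without the fish 3 library titled 10 µM. The mitochondrial share of all reads was 2.24%, 2.72% and 2.73% in controls and 2.11%, 1.55% and 2.35% at 100 µM.

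Some products typical of liver fell. Albumin, alb1, was not called, at 565299, 444277 and 526385 in controls and 478500.0, 481276 and 482749 at 100 µM (-0.08 ± 0.17, adjusted p = 0.811). Of 127 hepatocyte products, 2 rose and 16 fell, and the falls were 0, 4 and 15 without fish 1, 2 and 3. Vitellogenin LOC100136426, the egg yolk precursor made by liver under estrogen, was present in these male fish's cells at 334714, 302148 and 704817 in controls and at 13982, 24682 and 378383 at 100 µM. In fish 1 and 2 it stood far below the controls, and in fish 3 it was above the controls of the other fish. It changed by -3.03 ± 0.60 (adjusted p = 0.0119, but 0.189 without fish 1 and 0.376 without fish 2). The estrogen receptors esr1 and LOC100136443 changed by -1.28 ± 0.30 (adjusted p = 0.0231, but 0.343 without fish 1 and 0.197 without fish 2) and -2.10 ± 0.45 (adjusted p = 0.0166, but 0.171 without fish 1 and 0.124 without fish 2), and the egg envelope gene LOC106573520 by -1.25 ± 0.18 (adjusted p = 0.00305, but 0.132 without fish 1). These families did not fall as a whole. The other of 2 vitellogenin genes changed by 0.36 and was not called. Among 5 zona pellucida genes of the egg envelope, changes ran from -1.25 to 0.75 and 1 was called.

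Amino acid enzymes of liver fell in 5 of 44 genes and rose in 1. Tryptophan dioxygenase LOC106611580, the first step of tryptophan breakdown, went from 35375, 32950.1 and 24640.3 to 2552, 3768 and 12284 (-2.64 ± 0.53, adjusted p = 0.0124, but 0.235 without fish 1 and 0.331 without fish 2), with the smallest fall in fish 3. Complement and coagulation genes gave 1 rise and 7 falls among 111, none of them called without fish 1 or without fish 2, and 4 falls without the fish 3 library titled 10 µM. Of 150 nuclear receptors and liver transcription factors, 2 rose and 11 fell, with 1, 3 and 25 falls without fish 1, 2 and 3, and 1 rise without the fish 3 library titled 10 µM. The liver identity factor HNF4-alpha, LOC106567096, went from 4170.0, 4609 and 5146 to 1363, 1648 and 2171, a change of -1.45 ± 0.20 (adjusted p = 0.00196, but 0.0867 without fish 1).

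Both cyp1a genes, cytochromes P450 that the aryl hydrocarbon receptor induces, fell. The first stood at 22624, 26141 and 21821 in controls and 2749.8, 20019.6 and 3502 at 100 µM, with the smallest fall in fish 2 (-2.02 ± 0.42, adjusted p = 0.0141, but 0.277 without fish 1 and 0.0789 without fish 3). The second stood at 7747, 6708 and 7617 in controls and 684, 3428 and 1156 at 100 µM (-2.40 ± 0.41, adjusted p = 0.00636, but 0.176 without fish 1). The receptor gene ahr2b changed by -1.58 ± 0.24 (adjusted p = 0.0036, but 0.115 without fish 1 and 0.052 without fish 2). Of the 57 other cytochromes P450, 2 rose and 1 fell.

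A few export pumps rose strongly. Of 116 conjugation and transport genes, 10 rose and 6 fell, shares not far from those of all genes, and 4, 5 and 9 rose without fish 1, 2 and 3. Without the fish 3 library titled 10 µM, 3 fell. Of 3 genes named canalicular multispecific organic anion transporter, which are MRP-type export pumps, 2 rose. LOC106589510 was at 25.3, 20 and 8.39 in controls and 1229, 885 and 1173 at 100 µM (5.97 ± 0.81, adjusted p = 0.00196, but 0.0761 without fish 2). LOC106578846 rose by 2.43 ± 0.30 (adjusted p = 0.00132) and was called whichever fish was left out. Most other MRP-type genes were not called. Among 21 genes named multidrug resistance-associated protein, changes ran from -1.13 to 1.08, and 1 rose and none fell. Without fish 1, 2 and 3, 0, 0 and 1 of them rose. The mitochondrial transporter ABCB6, LOC106575100, went from 549.6, 579 and 502 to 2401, 1934 and 2221, with much the same change in each fish (2.00 ± 0.17, adjusted p = 0.000223). The alpha-class glutathione transferase gsta, which joins glutathione to its targets, rose by 2.24 ± 0.29 (adjusted p = 0.00165) in every fit.

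FAM20 genes were among the falls. Of 9 FAM20 genes (kinases that phosphorylate secreted proteins, and a partner pseudokinase), 5 fell, with a median of -3.05 and fish medians of -1.76, -2.64 and -3.86; 1, 2 and 4 fell without fish 1, 2 and 3. fam20a stood at 270.0, 626 and 2409.7 in controls and 25.3, 31.8 and 165.3 at 100 µM. Controls of the 3 fish differed widely, and within each fish the exposed culture was far lower (-3.37, -4.26 and -3.86), a change of -3.83 ± 0.48 (adjusted p = 0.00143) called whichever fish was left out. The FAM20C-like kinase LOC106591397 went from 2214, 5673 and 10858 to 76.9, 166.7 and 2539 (-4.002 ± 0.60, adjusted p = 0.00318, but 0.0802 without fish 1 and 0.178 without fish 2). The Wnt-9a-like ligand LOC106599874 changed by -4.16 ± 0.63 (adjusted p = 0.00337, but 0.0802 without fish 1 and 0.0716 without fish 2). Krueppel-like factor 6, LOC100196412, fell from 1642, 1758 and 2668 to 186.5, 89.6 and 284 (-3.55 ± 0.35, adjusted p = 0.000506) in every fit, while the copy LOC106567880 rose by 1.41 ± 0.32 (adjusted p = 0.0208, but 0.335 without fish 1 and 0.0975 without fish 2).

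Tubulins, the subunits of microtubules, had 8 rises and 1 fall among 35. Their fish medians were 0.96, 1.13 and 0.13, and 12 rose in fish 1 and 2 against none without fish 1 or without fish 2. Matrix and adhesion genes gave 4 rises and 8 falls among 129. Without fish 1, 2 and 3 the rises were 0, 0 and 6 and the falls 0, 3 and 8. Of all genes, 9.81% rose and 6.06% fell without fish 3.

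Sestrins, stress proteins that restrain the growth kinase mTORC1, split by type. sesn1 went from 1559, 1073 and 1485 to 193.1, 130.4 and 333, a change of -2.73 ± 0.24 (adjusted p = 0.000223) in every fit, and its copy LOC106571802 from 171.8, 82.6 and 119.3 to 11.2, 2.27 and 18.5 (-3.71 ± 0.88, adjusted p = 0.0251, but 0.301 without fish 1 and 0.139 without fish 2). Of 3 sestrin-3-like genes, 2 rose, LOC106604703 by 1.71 ± 0.30 (adjusted p = 0.00645, but 0.11 without fish 1 and 0.0782 without fish 2) and LOC106611768 by 1.59 ± 0.42 (adjusted p = 0.0374, but 0.323 without fish 1 and 0.237 without fish 2). The DDIT4-like gene ddt4l, of a family that also restrains mTORC1, stood at 463, 209 and 313 in controls and 15614, 21318 and 1512 at 100 µM, with a much smaller rise in fish 3 (4.67 ± 0.89, adjusted p = 0.0112, but 0.209 without fish 1 and 0.352 without fish 2).

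The list of DNA damage and cell death genes, which holds these families, had 17 rises and 6 falls among 90, with fish medians of 0.47, 0.40 and 0.17. Fish 1 and 2 gave 28 rises, against none without fish 1 or without fish 2. Copies of p53, the guardian factor of DNA damage, did not move together: LOC106577554 rose by 2.01 ± 0.30 (adjusted p = 0.00326, but 0.115 without fish 1 and 0.0514 without fish 2) and LOC106608673 changed by -0.93 ± 0.20 (adjusted p = 0.0176, but 0.33 without fish 1 and 0.142 without fish 2). The cell cycle inhibitor p21 had 1 of 3 copies called, LOC106576064, which went from 553, 544 and 392 to 8448, 7771 and 785 (2.92 ± 0.80, adjusted p = 0.048, but 0.446 without fish 1 and 0.458 without fish 2). Of 16 caspase genes, 1 rose and 2 fell, with fish medians of -0.06, -0.28 and -0.32. The riser was the caspase-9-like gene LOC106567147, an initiator of apoptosis, at 2.61 ± 0.45 (adjusted p = 0.0062, but 0.154 without fish 1 and 0.0728 without fish 2). Bcl-X, bclx, which protects mitochondria, rose by 1.10 ± 0.25 (adjusted p = 0.0209, but 0.253 without fish 1 and 0.202 without fish 2). The 56 cell cycle genes had a median of -0.31 and fish medians of -0.05, 0.05 and -0.18. In fish 1 and 2 alone 3 rose, under the 9.81% of all genes that rose in that fit.

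**Figure D4:**
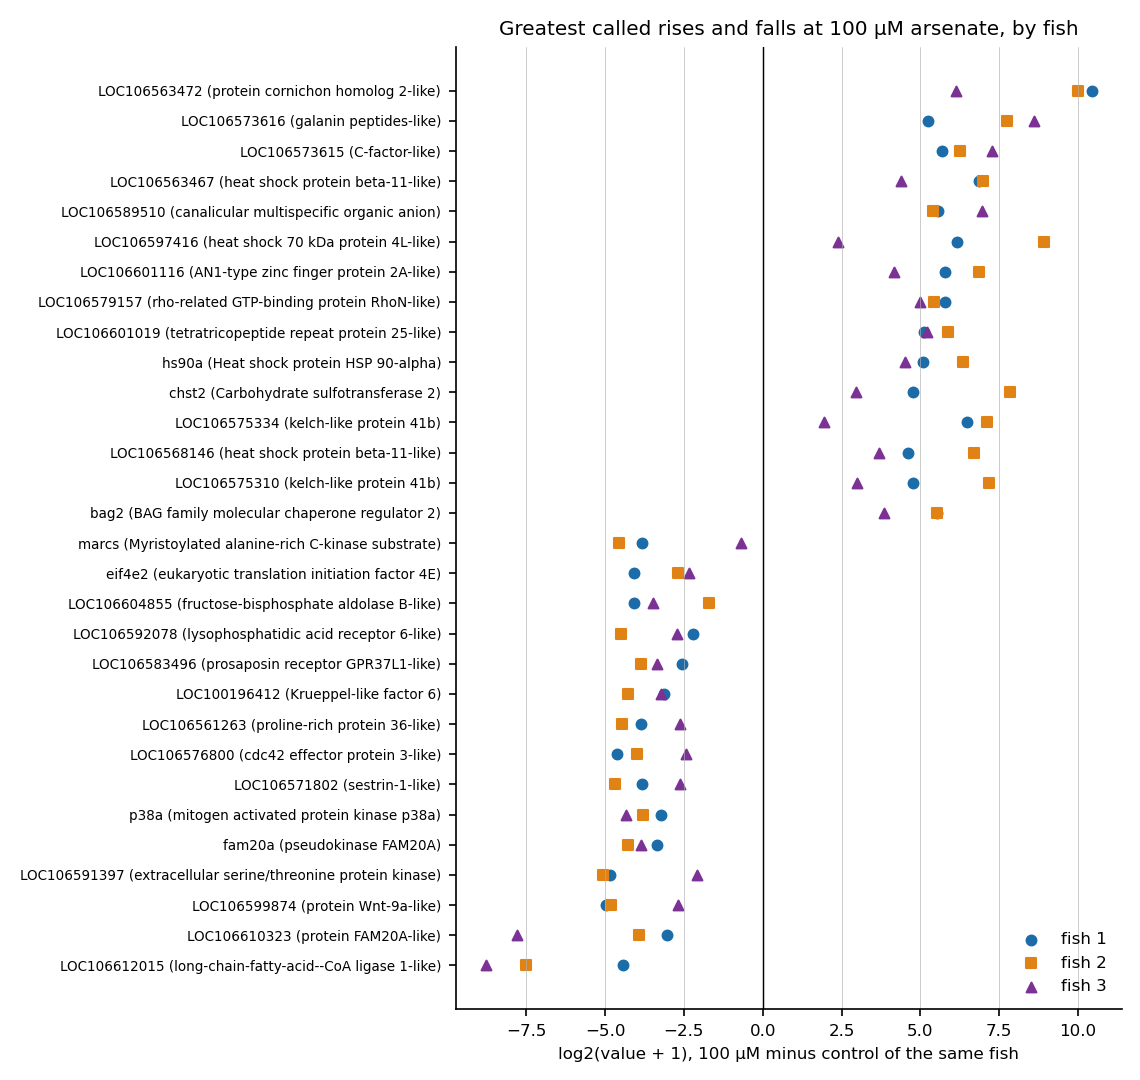
Log2 difference between 100 µM arsenate and control of the same fish (x) for the 15 greatest rises and 15 greatest falls among called genes chosen by the rule for named genes (y), 1 symbol per fish. Every point of a gene lies on the same side of 0; fish 3 lies nearest to 0 for the heat shock and BAG genes and farthest for LOC106573616, LOC106573615 and LOC106612015, among others.

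The greatest rise of all belonged to LOC106563472, a cornichon homolog 2-like gene; cornichons are cargo receptors that help proteins leave the endoplasmic reticulum. It was at 0 in all 3 controls and at 1381, 1014 and 68.5 at 100 µM, and at 290.3, 77.7 and 1502 at 50 µM. The mean of the 3 exposed libraries was at least 317-fold above a floor of 3 reads per library. Fish 1 and 2 carried that mean, and fish 3 alone, at 68.5, lay much nearer the floor. The gene was called with all fish (adjusted p = 0.00176, but 0.0867 without fish 1). The galanin-like gene LOC106573616, named for a neuropeptide, went from 13.5, 1.74 and 1.86 to 542, 589.8 and 1100.2 (7.19 ± 0.53, adjusted p = 9.58e-05). Its neighbour on the chromosome, the C-factor-like gene LOC106573615, went from 31.7, 13 and 17.7 to 1687, 1083 and 2864 (6.41 ± 0.59, adjusted p = 0.000307). Both were called whichever fish was left out, and fish 3 showed the largest change of the 3. RhoN-like LOC106579157, a small GTPase, rose by 5.40 ± 0.73 (adjusted p = 0.00196, but 0.0928 without fish 1), beside its neighbour brca1, a DNA repair gene, at 2.36 ± 0.40 (adjusted p = 0.00601, but 0.164 without fish 1 and 0.052 without fish 2).

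A further set of genes moved in fish 1 and 2 and hardly or not at all in the fish 3 library titled 100 µM. With that library left out of the fit, 1512 genes were called higher and changed by 1 or more in both fish 1 and fish 2, and 995 were lower by the same rule. In fish 3, 530 of the 1512 and 412 of the 995 changed by 0.5 or less in that direction, or the other way, and 555 and 323 changed by 1 or more. The genes named here were picked for that contrast, so their values are a description. LOC106572651, a lifeguard 2-like gene of a family that restrains cell death, stood at 10.3, 15.6 and 2.8 in controls, 54.3, 28.6 and 272 at 50 µM and 1105, 507 and 4.35 at 100 µM. p21-like LOC106609234 stood at 308, 356 and 336 in controls, 670.5, 582 and 2308 at 50 µM and 1983, 2183 and 193.5 at 100 µM. In both, fish 3 was high at the title of 50 µM and close to or below its control at that of 100 µM. Falls had the same arrangement. The vitamin D 24-hydroxylase-like gene LOC106583685 was at 23954, 24420.5 and 22164 in controls, 22157, 25426 and 2949.7 at 50 µM and 3572, 3587 and 25277 at 100 µM. Deiodinase 3-like LOC106608133, which inactivates thyroid hormone, was at 527, 534 and 386 in controls, 113.3, 328 and 38.9 at 50 µM and 34.7, 69.2 and 337 at 100 µM.

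The lower doses place these values. At 10 µM, no gene was called with limma (0%), where 186 of 25465 had an unadjusted p under 0.05, nor with edgeR, and 4 were with DESeq2. At 50 µM, 1306 genes rose (5.13%) and 944 fell (3.71%), 8.84% in all, against the same 3 controls. The 1401 genes that rose at 100 µM had fish medians of 1.13, 1.07 and 1.59 at 50 µM, and the 789 that fell had -1.18, -1.13 and -1.28. These are measured against the same control libraries, so the doses are set side by side only. Tested directly, no gene differed between 100 and 50 µM with limma (0%), where 456 had an unadjusted p under 0.05, nor with edgeR or DESeq2. In fish 1 and 2 alone, 24 were higher (0.0959%) and 3 lower (0.0120%) at 100 µM.

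Single genes took different courses over the doses. gsr was at 31329.6, 13283 and 16657 at 10 µM, 67788, 69869.8 and 72997 at 50 µM and 63765, 65464 and 66739 at 100 µM, level between the 2 upper doses in all 3 fish. hs90a was at 11631, 2421 and 1719 at 10 µM and 126369, 88149 and 360213 at 50 µM, and from there to 100 µM it climbed in fish 1 and 2 and dropped in fish 3. For LOC106582666 (CHOP) the values were 712, 913 and 568 at 10 µM and 1634, 2048 and 6944 at 50 µM, and again only fish 3 was higher at 50 than at 100 µM. The first course was shared by the cystine transporter LOC106604686 and the second by sqstm1, as the plot of levels by dose shows.

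**Figure D5:**
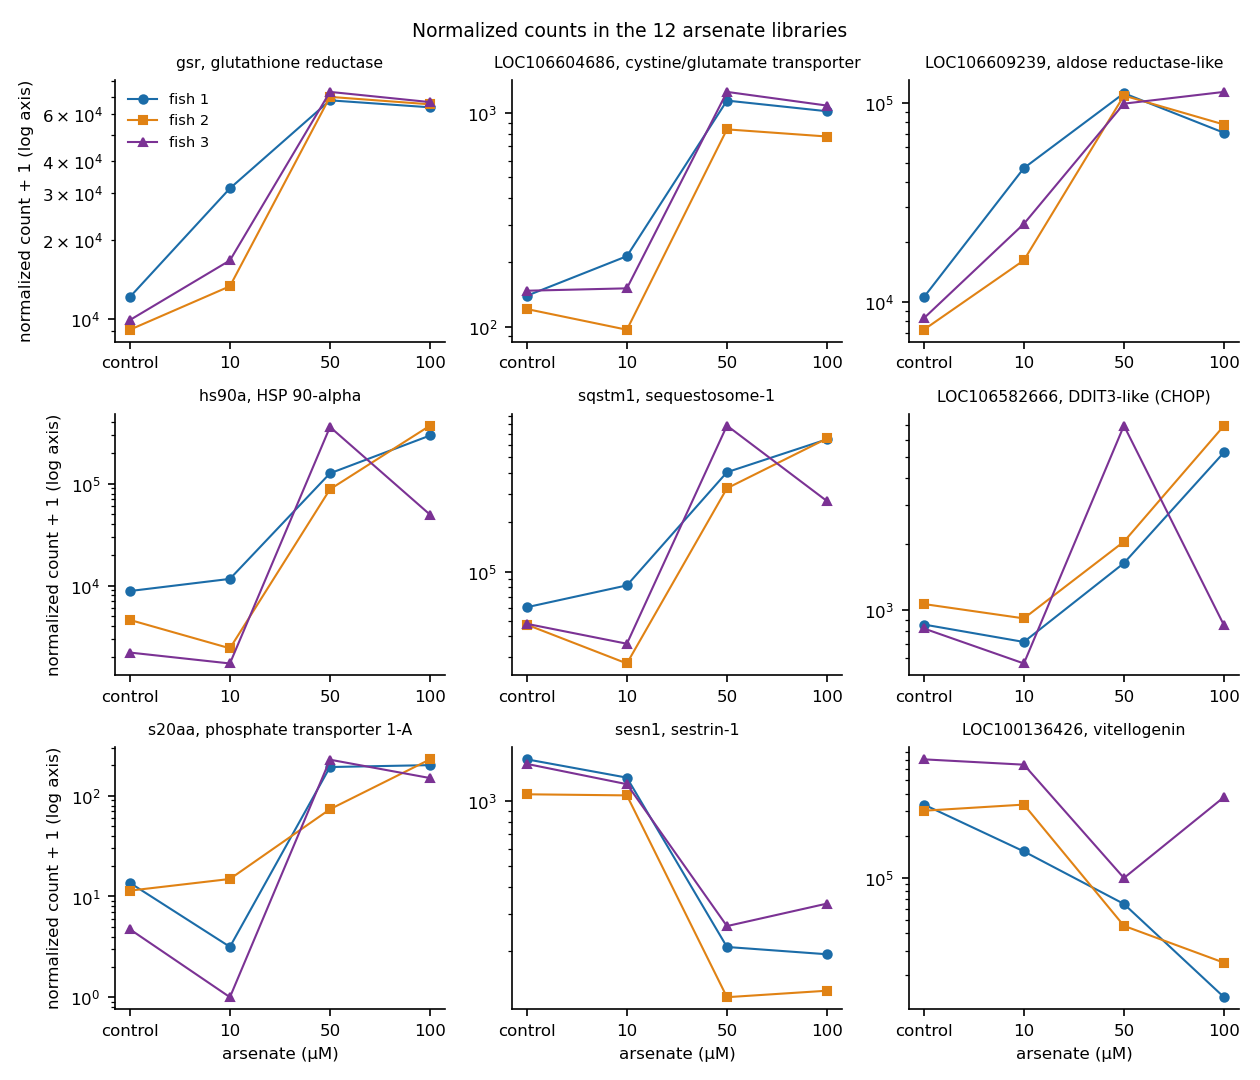
Normalized read count + 1 (log axis) of 9 genes against arsenate dose (µM), with 1 line per fish over the 12 libraries. In the upper row the 50 and 100 µM values lie close together, while hs90a, sqstm1 and LOC106582666 climb in fish 1 and 2 and drop in fish 3; among the falls, vitellogenin LOC100136426 is higher at 100 than at 50 µM in fish 3.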

How the data were processed

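RNA was sequenced from 72 cultures, of which the 12 arsenate libraries were used here. Per the submitters' processing notes, the authors used HISAT2, featureCounts, Subread and DESeq2 1.40.2; the genome build is not given in the sources used here. The deposited signal values are gene counts that the authors divided by size factors: all values (100%, tolerance 0.01) came out as whole reads in the 12 libraries, so depth was recovered. Names follow the deposited symbols and a RefSeq gene table that held 23011 of 25830 IDs.

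Values were tested as log2(value + 1) with limma 3.58.1 in R 4.3.3 over the 12 libraries (4 groups, fish as a block, trend and robust options, Benjamini-Hochberg adjustment, threshold 0.05), after keeping genes at 10 or more in at least 3 libraries. The log2(value + 1) scale understates changes of low genes. Equal fish numbers mark the same animal, per the labels. Deviations from the group means correlated at 0.174, 0.282 and 0.303 between control and 100 µM of the same fish, against -0.287 to 0.0271 between fish. Such deviations sum to 0 over the 3 fish of a group, which pulls the values between fish below 0, so they are no separate evidence. Over all pairs of the 4 groups, values of the same fish ran from -0.089 to 0.375. No 2 libraries of a group agreed within sampling noise. Counts were simulated for 100 µM against control (25195 genes), with the same change in all 3 exposed libraries of well-counted genes. Of 100 genes changed 2-fold 42% were recovered, and of 100 changed 4-fold 100%, with 5 false calls. The simulated spread between libraries was a fixed setting, the same for all genes and not estimated from the data. Those rates are therefore not error rates of these data, and do not describe genes whose change differed between fish. In the data, LOC106598765 (heat shock protein 30-like) changed by 4.03 and was not called with limma (adjusted p = 0.106). Alternatives were edgeR 4.0.16 and DESeq2 1.42.0 on recovered reads, no block, the 6 libraries alone, other pseudocount, filter and scaling, and leaving out each fish or single fish 3 libraries. Figures used matplotlib 3.10.9.

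Genes were named as the 15 greatest rises and 15 greatest falls (same sign in 3 fish, mean of 100 or more in the higher group), the 4 members of each list with the lowest adjusted p, and fixed landmarks. Members and lists were chosen with earlier results of these data known; families, genes held without each fish and genes named only within counts were chosen after values were seen. Levels are not per length and are not compared between genes. Some genes of the cell death list are counted in it but their own values are not reported here.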

Additional observations from a re-analysis of the deposited data

How the results depend on the processing

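Counts of genes called at 100 µM depended on the fit more than on the scaling. The fish number pairs the libraries, and without the replicate block 1139 genes rose and 562 fell. With the 6 libraries alone and the block kept, 1894 of 24641 genes rose (7.69%) and 1163 fell (4.72%). With the 6 libraries alone and no block the counts were 781 and 358, with neither trend nor robust options 510 and 340, with DESeq2 2437 and 1507, and without the fish 3 library titled 100 µM 2715 and 1852. The last of these fits shared 1342 (95.8%) of the rises and 723 (91.6%) of the falls. Leaving out 1 fish gave 78 to 2455 rises and 17 to 1518 falls, and for 100 against 50 µM 0 to 24 and 0 to 3. All 12 libraries without the block, and the 6 libraries with the block, stayed within 1.5 times the counts of 1401 and 789. So did the remaining alternatives. Pseudocount 10 gave 1510 and 922, no filter 1393 and 777, library-size scaling 1183 and 795, and edgeR 1507 and 689. Leaving out the fish 3 library titled 10 µM, an alternative chosen after seeing the data, gave 1197 and 628. The last of these ended 6 of the named calls: LOC106607825, LOC100136581, LOC106607297, LOC106608433, ND2 and ND5 had adjusted p of 0.0502 to 0.0705. The fits without a fish have 8 libraries and few residual degrees of freedom, and the cause of the differences was not tested.

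For 14 named genes, none of them called with all fish, the sign depended on the fit. Their ranges over the fits that left out a fish or the fish 3 library titled 100 µM were LOC106563198 (-0.067 to 0.69), LOC106601841 (-0.047 to 0.57), LOC100136589 (-0.27 to 0.74), gapdh (-0.21 to 0.30), LOC106575942 (-0.33 to 0.33), LOC106577739 (-0.34 to 0.13), srxn1 (-0.48 to 0.21), LOC106569991 (-0.47 to 0.22), LOC106601881 (-0.51 to 0.14), aqp9 (-1.05 to 0.18), LOC106570896 (-0.67 to 0.27), LOC100136364 (-1.46 to 0.66), LOC106579008 (-2.34 to 0.52) and LOC106588103 (-1.45 to 1.43). Library-size scaling gave LOC106575942 -0.057, pseudocount 10 gave LOC100136364 0.10, and edgeR gave LOC100136364 0.25 and LOC106588103 0.49.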

Other observations

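The 69 rises called whichever fish was left out included the next amino acid carriers. The neutral amino acid transporter slc1a5, known in mammals for glutamine uptake, stood at 778, 479.8 and 325 in controls and 13412, 8268 and 2745 at 100 µM and rose by 3.76 ± 0.36 (adjusted p = 0.000337). Its relative slc1a4, a carrier of alanine, serine and cysteine, rose by 2.03 ± 0.24 (adjusted p = 0.0012), the cationic amino acid transporter LOC106602957 by 2.62 ± 0.33 (adjusted p = 0.00137), and the glycine transporter LOC106569088 by 2.79 ± 0.28 (adjusted p = 0.000506). The 14 falls called in every such fit included the next genes. Cadherin-2-like LOC106584192, an adhesion protein between cells, went from 1775, 2506 and 2193 to 554, 913 and 735 (-1.57 ± 0.16, adjusted p = 0.000522), and desmoplakin-like LOC106584072, which ties desmosomes to keratin, went from 1996, 1472 and 2106 to 487, 364 and 600.1 (-1.95 ± 0.24, adjusted p = 0.00131). All these genes were named after their values were seen.

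Some neighbouring genes were called together and others in opposite directions. ABCB6 LOC106575100 and its neighbour LOC106575101 (CNPPD1-like) both rose, the second by 1.498 ± 0.29 (adjusted p = 0.0107, but 0.211 without fish 1 and 0.0869 without fish 2). Beside sesn1, which fell, cep57l1, a centrosome gene, rose from 57, 53 and 38.2 to 163.1, 149.7 and 114.2 (1.51 ± 0.40, adjusted p = 0.0378, but 0.313 without fish 1 and 0.219 without fish 2).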
